A study of Rattus norvegicus with 10 samples.

Results

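Hepatocytes clear drugs and bilirubin by taking organic anions up from blood and exporting their conjugates into bile or back into blood, and 9 rat genes of this route are described here. They form a set of 4 uptake carriers (Slco1a1, Slco1a4, Slco1b2 and Slc22a7) and 5 ATP-driven export pumps of the ABC family (Abcc2, Abcc3, Abcc4, Abcb1a and Abcb1b), read from every array probe that carried their symbol. Of the 9 genes, 8 had a named probe, on 11 probes in all, and 7 were bright enough to be tested among the 6849 genes tested on the array. No probe could be matched to Slc22a7, which carries organic anions and nucleotides, so it is not analysed here.

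Liver RNA of 10 male Wistar rats was hybridised to 1-colour Agilent whole rat genome arrays, 1 array per rat, from 150 ng of total RNA. The 5 DEN/TAA rats were injected intraperitoneally, when 6 weeks old, with 1 dose of 200 mg/kg diethylnitrosamine (DEN), a DNA-alkylating liver carcinogen. Repeated intraperitoneal doses of 200 mg/kg thioacetamide (TAA), a toxin that scars the liver, began after another 2 weeks and ran over 23 weeks, with 1 week of rest after every 3 weeks of dosing. The 5 control rats had received vehicle only. The labels give the age of all 10 rats as 23 weeks, although that course would have ended later, and the age at sampling is not settled here. The series title presents the protocol as a model of liver cancer arising in cirrhosis, and the labels do not say which part of a liver, or how much nodule and scar, went into each extract.

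The uptake carriers sit in the blood-facing membrane of the hepatocyte. The organic anion transporting polypeptides, encoded by the Slco genes, bring in bile acids, bilirubin, steroid conjugates and drugs without using sodium. The multidrug resistance proteins Abcc2, Abcc3 and Abcc4 pump out glucuronide, sulphate and glutathione conjugates, Abcc2 into bile and the other two into blood. The P-glycoproteins, encoded in rodents by Abcb1a and Abcb1b, export bulky hydrophobic drugs into bile.

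On the RefSeq gene map of the rat assembly GRCr8, Slco1b2, Slco1a4 and Slco1a1 lie side by side on chromosome 4, with no other protein-coding gene between them. The stretches before the start sites of these 3 genes, which move together below, and of Abcc2, which moves against them, are shown for comparison. Each run holds the 200 bases before the annotated start in RefSeq (GRCr8), 5′ to 3′ on the gene's own strand. Capitals mark the letters GTTAAT, which form part of the site of the hepatocyte factor HNF1, or their reverse complement.
Slco1a1, chr4:176681993-176682192, minus strand: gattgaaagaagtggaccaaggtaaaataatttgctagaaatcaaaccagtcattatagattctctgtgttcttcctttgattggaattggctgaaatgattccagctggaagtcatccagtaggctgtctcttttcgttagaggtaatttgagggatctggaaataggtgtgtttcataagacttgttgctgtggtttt
Slco1a4, chr4:176495847-176496046, minus strand: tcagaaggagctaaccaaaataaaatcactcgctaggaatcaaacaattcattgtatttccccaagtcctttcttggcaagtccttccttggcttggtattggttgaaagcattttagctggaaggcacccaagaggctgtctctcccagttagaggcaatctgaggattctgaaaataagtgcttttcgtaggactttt
Slco1b2, chr4:176282384-176282583, plus strand: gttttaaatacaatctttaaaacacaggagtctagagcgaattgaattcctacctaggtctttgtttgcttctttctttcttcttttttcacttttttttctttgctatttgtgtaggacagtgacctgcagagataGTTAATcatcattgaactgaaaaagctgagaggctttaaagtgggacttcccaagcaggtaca
Abcc2, chr1:252613675-252613874, plus strand: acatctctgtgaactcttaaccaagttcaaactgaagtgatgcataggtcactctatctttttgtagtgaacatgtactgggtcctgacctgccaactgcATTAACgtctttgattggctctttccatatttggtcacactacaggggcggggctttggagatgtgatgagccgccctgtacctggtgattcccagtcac

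The Slco1a1 and Slco1a4 stretches resemble each other. Over the full window of 300 bases (250 before and 50 after the start), 206 of 283 aligned bases were identical, or 72.8%, against 57.8% between Slco1a1 and Slco1b2. The letters GTTAAT began at base -63 of Slco1b2 and, on the opposite strand, at base -100 of Abcc2, counting from the start site. They occur on either strand in 7.45% of 33469 such windows, and a match is given as a description only. The core of the antioxidant response element, TGACNNNGC, through which NRF2 acts, occurs on either strand in 12.1% of the windows. Abcc3 had no such window and was not searched for any of these letters. Among the 8 genes with a window, the core was found in Abcc2 alone, beginning at base 18 after the start. It is shown in capitals within bases 9 to 35 of Abcc2, chr1:252613883-252613909, plus strand.
Abcc2, element core: tcactgggaTGACATAGCgtacaacat
The STAT5 letters TTCNNNGAA, present in 8.87% of windows, lay in those of Slco1b2 (base -209), Abcc2 (base 35) and Abcc4 (base -123).

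All values below are log2 processed signals minus the array's 75th percentile, taken over probes detected well above background in all 10 rats. Differences are DEN/TAA minus control, tested with limma across all genes, with Benjamini-Hochberg adjusted p-values. The DEN/TAA arrays were brighter, with 36.1% to 46.6% of spots well above background, against 16.5% to 32.9% on control arrays. Of the 6849 genes tested, 55.5% were called at an adjusted p under 0.05, 39.2% higher and 16.3% lower, and the median difference of all genes was 0.33. That median ranged from -0.28 to 0.99 over 6 ways of scaling the arrays, so a direction given below is stated for all 6 unless an exception is named. The 17 hepatocyte secreted protein genes used to check the tissue label, such as albumin, were well above background on all 10 arrays.

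All 3 measured uptake carriers were lower in DEN/TAA livers, by 3.69-fold to 8.91-fold, against a background of 16.3% of genes called lower. All 4 tested export pumps were called higher, against a background of 39.2% called higher, although the direction of Abcc4 turned with normexp background correction and the call of Abcb1b was lost there. Abcc2 and Abcb1b were detected in both groups, whereas Abcc3 and Abcc4 were well above background on no control array and passed the filter only through the DEN/TAA arrays. The groups did not overlap for any of the 7 genes, whereas 39.5% of all genes tested did not overlap, 11.4% lower and 28.1% higher. Counts over the 7 genes are therefore read against 55.5% of genes called in either direction.

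**Figure D1:**
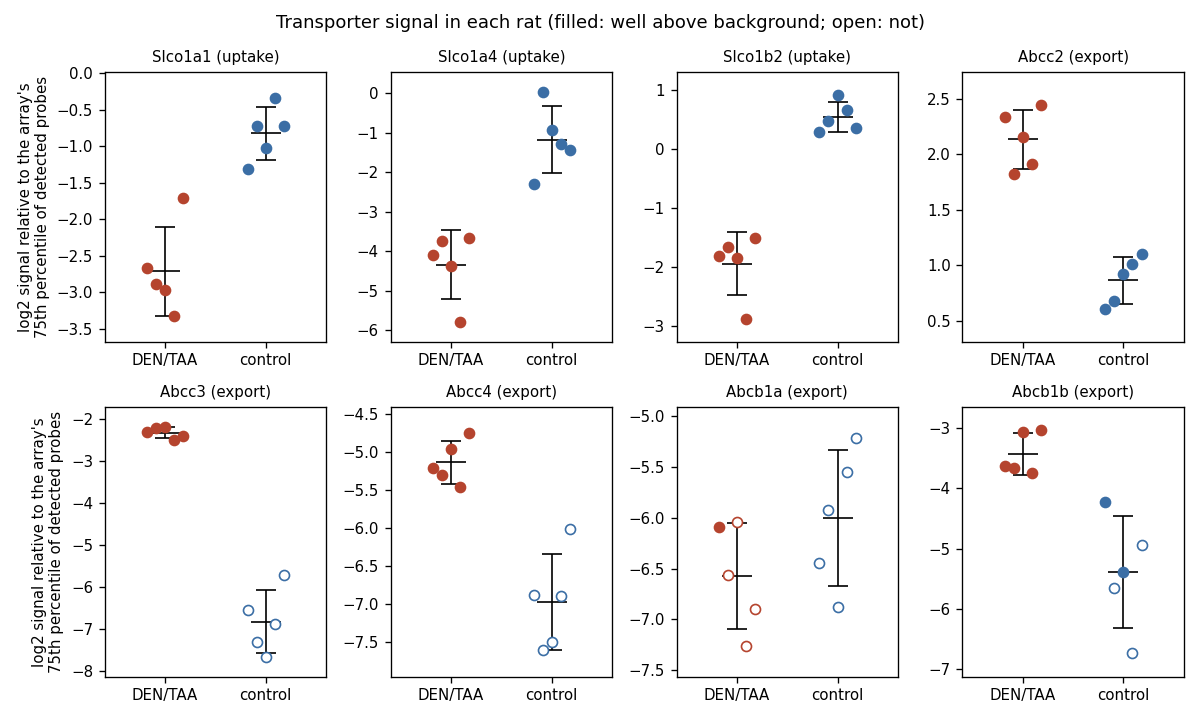
Log2 signal relative to the array's 75th percentile (y axis) of the probe used for each measured transporter in the 5 DEN/TAA and 5 control rats, 1 point per rat, with mean ± SD. Filled points were well above background and open points were not. The 3 Slco carriers sit lower in every DEN/TAA rat than in any control rat, Abcc2 sits higher, and the control points of Abcc3, Abcc4 and most of those of Abcb1b are open.

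Slco1b2 is the liver carrier for bilirubin conjugates, bile acids and statins. In DEN/TAA replicates 1 to 5 it read -1.80, -1.66, -1.85, -2.87 and -1.51, against 0.29, 0.49, 0.91, 0.66 and 0.36 in control replicates 1 to 5. Every DEN/TAA rat was thus below every control rat, with DEN/TAA replicate 4 lowest. The difference was -2.48 (SE 0.25, 95% interval -3.02 to -1.93), or 5.57-fold lower in DEN/TAA (limma adjusted p = 1.08e-05). Over the 6 scalings it ranged from -2.78 to -1.82.

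Slco1a4 carries digoxin and bile acids, and in rats it is known as a target of the xenobiotic receptor PXR. Its brighter probe read -4.10, -3.74, -4.37, -5.80 and -3.67 in DEN/TAA replicates 1 to 5, against -2.31, 0.033, -0.92, -1.28 and -1.43 in control replicates 1 to 5. Both groups were spread widely, with an SD of 0.86 in DEN/TAA and 0.85 in control, yet they did not overlap. The difference was -3.16 (SE 0.46, 95% interval -4.17 to -2.14), or 8.91-fold lower in DEN/TAA (limma adjusted p = 0.000163), and it ranged from -3.46 to -1.85 over the scalings. A second Slco1a4 probe differed by -2.60, with means of -4.99 ± 1.29 in DEN/TAA and -2.39 ± 0.69 in control (SD, n = 5 each). On that probe DEN/TAA replicate 4 was not above background, and the groups were only 0.0079 apart at their nearest.

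Slco1a1 takes up bile acids and steroid sulphates, and it is the male-predominant carrier of rodent liver. It read -2.66, -2.89, -2.96, -3.33 and -1.71 in DEN/TAA replicates 1 to 5, against -1.32, -0.72, -1.03, -0.34 and -0.73 in control replicates 1 to 5. DEN/TAA replicate 5 was the nearest to the control rats. The difference was -1.88 (SE 0.29, 95% interval -2.51 to -1.26), or 3.69-fold lower in DEN/TAA (limma adjusted p = 0.000212), and from -2.19 to -1.22 over the scalings. Slco1a1 and Slco1a4 are related in sequence, and how far their probes share signal was not examined.

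The rats kept the same extremes across the 3 carriers. DEN/TAA replicate 4 had the lowest value and DEN/TAA replicate 5 the highest value of each. Over the 4 transporter lists together 13 genes were called lower, and DEN/TAA replicate 5 was the DEN/TAA rat nearest to control for 10 of them, or 76.9%, against 50.8% of all 1116 genes called lower. No test of that share was made.

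Abcc2 exports bilirubin glucuronides and glutathione conjugates into bile, and rats that lack it have conjugated bilirubin in the blood. Its probe was printed in 10 spots per array, which were averaged. It read 2.34, 1.82, 2.16, 1.92 and 2.45 in DEN/TAA replicates 1 to 5, against 0.60, 0.68, 0.92, 1.01 and 1.10 in control replicates 1 to 5. All 10 values were well above background and the groups stood apart. The difference was 1.27 (SE 0.17, 95% interval 0.90 to 1.65), or 2.41-fold higher in DEN/TAA (limma adjusted p = 8.76e-05), and it stayed between 0.96 and 1.93 over the scalings. In size it exceeded the differences of 77.8% of the genes tested.

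Abcc3 moves glucuronides and bile acids back into blood and is kept low in normal rat liver. The DEN/TAA rats were close together, at -2.33, -2.22, -2.20, -2.52 and -2.41 in replicates 1 to 5. The control signals were -6.55, -7.32, -7.67, -6.90 and -5.73 in replicates 1 to 5, none of them well above background. Scaled on the detected probes, with each control array set no lower than its dimmest detected probe, Abcc3 was at least 6.33-fold higher in DEN/TAA. That bound is 2.66 on the log2 scale, against a measured difference of 4.50 (limma adjusted p = 8.27e-07). Its second probe, detected in all 5 DEN/TAA rats and in no control rat, was at least 1.80-fold higher on the same basis, but differed by 0.55 with normexp and by 0.63 in the authors' table, on the log2 scale. Over the scalings the measured difference of the first probe ranged from 1.35 to 5.16. It fell below the bound of 2.66 with normexp (1.57) and in the authors' table (1.35).

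Abcc4 exports bile acids together with glutathione, and cyclic nucleotides, into blood. It read -5.21, -5.30, -4.96, -5.46 and -4.75 in DEN/TAA replicates 1 to 5, against -6.87, -7.60, -7.50, -6.90 and -6.02 in control replicates 1 to 5, where no value was well above background. The measured difference was 1.84 (SE 0.28, limma adjusted p = 0.000216), but it gives no bound above 1-fold. With undetected signals raised to each array's floor it was -0.14 (adjusted p = 0.774), and with normexp background correction -0.17 (adjusted p = 0.729), so its direction depended on how dim control signals were treated. Its second probe differed by 0.98, but by -0.76 with normexp and by -1.08 with undetected signals raised to the floor. That probe was detected in 4 of 5 DEN/TAA rats and in no control rat, and its groups overlapped.

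Abcb1b is the P-glycoprotein gene that rodent hepatocytes are known to induce on injury. It read -3.63, -3.67, -3.06, -3.75 and -3.04 in DEN/TAA replicates 1 to 5, against -4.22, -5.65, -5.39, -6.73 and -4.93 in control replicates 1 to 5. All 5 DEN/TAA values were well above background, but only control replicates 1 and 3 were. The difference was 1.96 (SE 0.39, 95% interval 1.11 to 2.80), or 3.88-fold higher in DEN/TAA (limma adjusted p = 0.00124), and 1.39 with undetected signals raised to the floor (adjusted p = 0.00546). With normexp background correction it was 0.30 (adjusted p = 0.495), which ends the call.

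Abcb1a, the other P-glycoprotein gene, was well above background on 1 of 10 arrays, that of DEN/TAA replicate 1, and was not tested. Its signals averaged -6.57 ± 0.52 in DEN/TAA and -6.00 ± 0.67 in control (SD, n = 5 each). These values are of the background's order and their difference changed sign over the scalings. Abcb1a and Abcb1b are close paralogs and neighbours on the gene map, and how far their probes share signal was not examined.

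**Figure D2:**
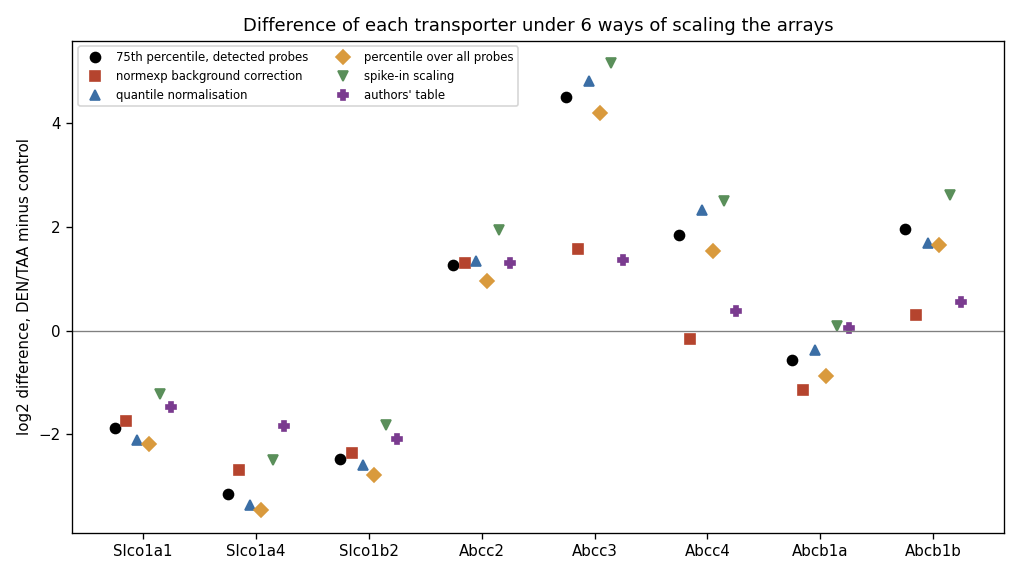
Log2 difference, DEN/TAA minus control (y axis), of each measured transporter under 6 ways of scaling the arrays, 1 symbol per scaling. The 3 Slco carriers lie below 0 and Abcc2, Abcc3 and Abcb1b above 0 under all 6, whereas Abcc4 and Abcb1a, which was detected on 1 of 10 arrays, fall on both sides of 0.

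The arrays lay on 3 slides that each held both groups, with 1 or 2 rats of a group on each. Within slides 1, 2 and 3 the Slco1b2 difference was -2.12, -3.27 and -2.02, and that of Abcc2 was 1.44, 1.11 and 1.39. The Slco1a1 difference was -1.76, -2.12 and -1.18 within the slides, and that of Slco1a4 -2.79, -4.17 and -2.31. For Abcb1b the values were 1.29, 1.99 and 2.79, for Abcc3 4.66, 5.31 and 3.90, and for Abcc4 1.98, 2.29 and 1.71, where no control signal of Abcc3 or Abcc4 was above background. The 5 genes detected in at least some rats of both groups kept their direction on each slide.

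Because array brightness differed between the groups, uptake and export were also set against each other inside each rat, where the array's scale cancels. Slco1b2 minus Abcc2 was -4.14, -3.48, -4.00, -4.78 and -3.95 in DEN/TAA replicates 1 to 5, against -0.32, -0.19, -0.011, -0.35 and -0.75 in control replicates 1 to 5. The zero of such a difference between probes has no meaning, but its shift between groups, -3.75, is free of the scale, and the nearest rats of the groups were 2.73 apart. The shift was -3.15 for Slco1a1 minus Abcc2 and -4.43 for Slco1a4 minus Abcc2, also without overlap. These 3 pairs use genes well above background in all 10 rats. Their shifts can still change with other processing. In the authors' table Slco1a4 differed by -1.85, against -3.16 here, and Abcc2 by 1.31, against 1.27 here. The mean of the 3 uptake carriers minus the mean of the 4 export pumps was -0.80 ± 0.49 in DEN/TAA and 4.09 ± 0.81 in control (SD, n = 5 each), a shift of -4.90. That wider score includes the undetected control signals of Abcc3 and Abcc4, and its shift was -3.80 with undetected signals raised to the floor.

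**Figure D3:**
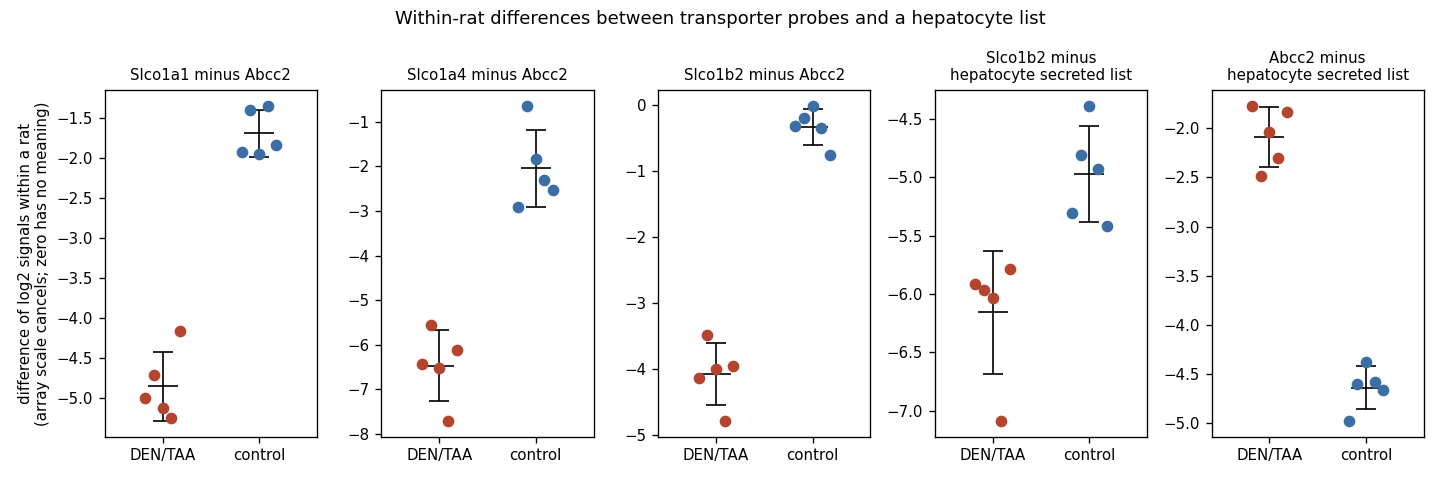
Difference between log2 signals within a rat (y axis) in the 5 DEN/TAA and 5 control rats, 1 point per rat, with mean ± SD, for each Slco carrier minus Abcc2, and for Slco1b2 and Abcc2 minus the mean of the 17 hepatocyte secreted protein genes. Each Slco carrier minus Abcc2 is lower in every DEN/TAA rat than in any control rat, by 2.21 or more at the nearest.

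In bulk tissue, fewer hepatocytes and less RNA per hepatocyte cannot be told apart, so the carriers were set beside other hepatocyte genes. Of the 17 hepatocyte secreted protein genes, 16 were called lower and 0 higher, against 16.3% lower and 39.2% higher of all genes tested. The list's median was -1.22, although 0 to 2 were called higher and 8 to 16 lower over the 6 scalings. Apoa2 and Apoc3, both apolipoproteins, differed by -2.63 and -2.06 (limma adjusted p = 8.24e-07 and 9.63e-07). The mean log2 signal over all 17 genes was 4.11 to 4.31 in DEN/TAA rats and 5.29 to 5.77 in control rats. Relative to this mean of 17 genes within the rat, Slco1b2 shifted by -1.19 and Slco1a4 by -1.87, without overlap between groups, although for Slco1a4 the gap was 0.051. Slco1a1 shifted by -0.60 on that basis and its groups overlapped, as did those of the mean of the 3 carriers, which shifted by -1.22. Abcc2 shifted by 2.56 relative to the same mean, with the groups 1.89 apart. Shifts relative to this mean, here and below, were taken under the scaling on detected probes only. With quantile normalisation the list's median was -0.34 and Slco1a1 differed by -2.10, so such shifts can change with the processing.

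Genes listed as markers of other cells are set beside the transporters here. Which cells of the extract expressed them, hepatocytes included, was not tested. Their counts stand against 39.2% of all genes tested called higher and 16.3% lower. Of the 13 biliary markers, 9 were tested and 7 were called higher, among them Ggt1 at 5.74 and Krt19 at 4.60 (limma adjusted p = 3.12e-07 and 8.24e-07), neither detected on a control array, and 1 was called lower, Slc4a2 at -0.89 (adjusted p = 0.0176). Over the scalings 5 to 8 were called higher and 0 to 1 lower. The mean over the biliary markers was -2.68 to -2.13 in DEN/TAA rats and -5.36 to -4.67 in control rats. Of the 9, 4 were above background on no control array and passed the filter only through the DEN/TAA arrays. With undetected signals raised to the floor, 6 biliary markers were called higher, with Ggt1 at 4.01 and Krt19 at 3.31. Of 13 macrophage markers 12 were called higher (9 to 13 over the scalings, with 0 to 1 lower), with Lgals3 at 3.65 and Trem2 at 4.74 (adjusted p = 7.46e-07 and 1.79e-06). Their mean was -1.48 to -0.92 in DEN/TAA rats and -3.87 to -2.58 in control rats. Cd163, Gpnmb and Trem2 were above background on no control array and passed the filter only through the DEN/TAA arrays. With the raised floor 11 macrophage markers were called higher, and Trem2 was 2.41. Of 10 tested stellate and myofibroblast markers 8 were called higher (6 to 10 over the scalings), with Dcn at 4.34 and Col1a2 at 2.89, and the means were -2.02 to -1.41 in DEN/TAA rats and -3.89 to -3.54 in control rats. Of 4 tested endothelial markers 3 were called higher (1 to 4 over the scalings), with Oit3 at 1.80 and Esam at 1.46, and the means were -2.02 to -1.68 in DEN/TAA rats and -3.20 to -2.71 in control rats. Esam was detected in 1 of 5 control rats and lost its call with normexp (0.11) and with the raised floor (0.76). The part of these markers in the transporter results was not tested.

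The wider set of hepatic uptake and exchange carriers held 22 genes, of which 20 had a named probe and 11 were tested. Of these 6 were called lower, 1 higher and 4 were not called, with a median of -1.08, against 16.3% lower, 39.2% higher and a median of 0.33 for all genes tested. Over the scalings 4 to 9 were called lower and 0 to 2 higher. Slc10a1, the sodium-dependent bile acid carrier of the hepatocyte, read -0.73, -1.41, -1.87, -1.23 and 0.16 in DEN/TAA replicates 1 to 5, against 1.23, 2.10, 1.80, 2.29 and 2.61 in control replicates 1 to 5. The groups did not overlap, and the difference was -3.02 (SE 0.37, limma adjusted p = 4.03e-05). Relative to the hepatocyte secreted mean within the rat Slc10a1 shifted by -1.73, with overlapping groups. Slco2b1, another organic anion carrier, differed by -2.07 (SE 0.21, adjusted p = 9.88e-06), and its second probe by -2.85. The prostaglandin carrier Slco2a1 differed by -2.05 (adjusted p = 0.000233).

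Slc22a18, an organic cation carrier-like gene, differed by -0.87 (adjusted p = 0.000219), and its call was lost under 1 of the 6 scalings. Slc28a2, a nucleoside carrier, was the gene called higher, at 1.03 (SE 0.34, adjusted p = 0.0235), and was called under 2 of 6 scalings. No probe was matched to Slc51b, a subunit of the bile acid exporter of the blood-facing membrane.

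**Figure D4:**
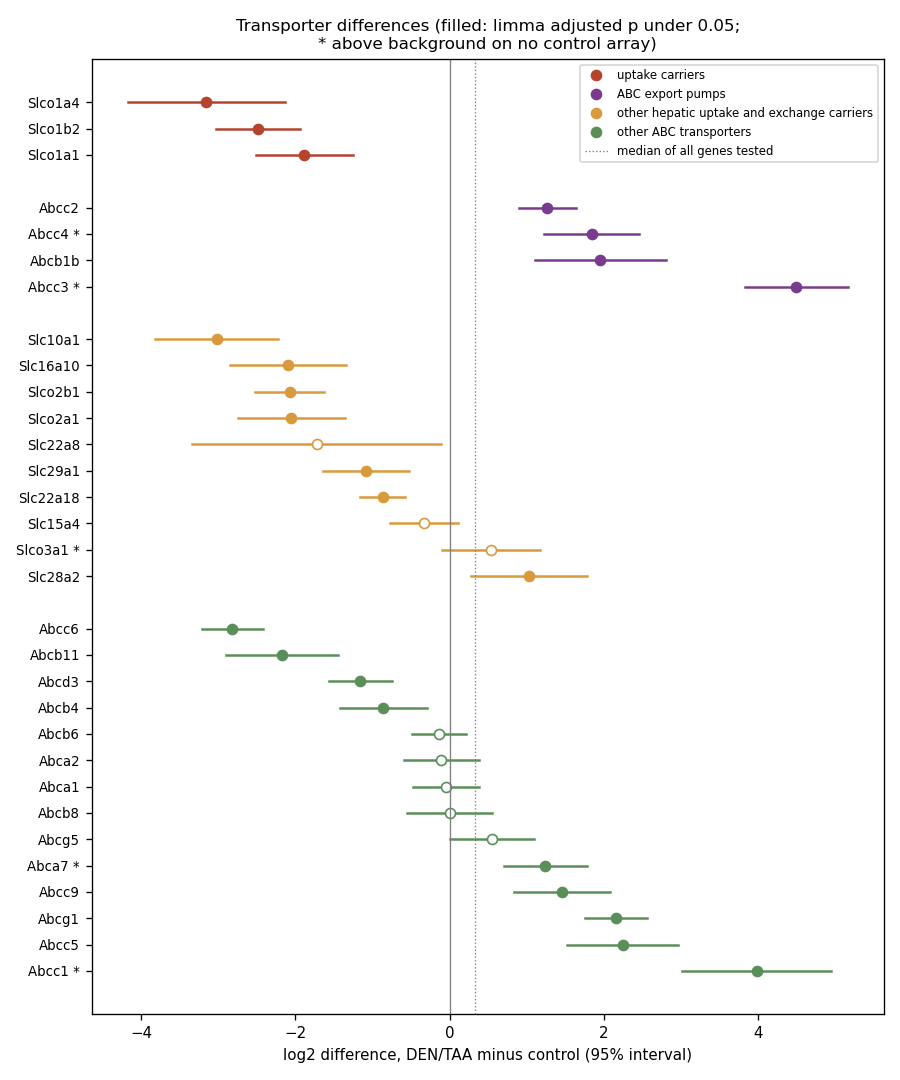
Log2 difference, DEN/TAA minus control, with its 95% interval (x axis) for the tested transporters reported here, grouped into uptake carriers, ABC export pumps, other hepatic uptake and exchange carriers and other ABC transporters. Filled points passed the limma adjusted p of 0.05, asterisks mark genes above background on no control array, and the dotted line is the median of all genes at 0.33. The Slco1 genes and Slc10a1 lie left of 0, and the ABC genes lie on both sides.

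The other ABC transporters did not move one way. Of 29 genes, 24 had a named probe and 14 were tested, with 5 called higher, 4 lower and 5 not called and a median of -0.023, against 39.2% higher and 16.3% lower of all genes tested. Over the scalings 2 to 6 were called higher and 2 to 5 lower, and the median changed sign, from -0.42 to 0.64. The 4 lower genes serve hepatocyte export or peroxisomes. Abcb11, the bile salt export pump, read -2.60, -2.79, -2.61, -2.93 and -1.16 in DEN/TAA replicates 1 to 5, against -0.60, -0.37, -0.45, 0.51 and -0.33 in control replicates 1 to 5. Its difference was -2.17 (SE 0.33, limma adjusted p = 0.000213), without overlap, so it went opposite to Abcc2 although both pumps sit in the bile canaliculus membrane. Relative to the hepatocyte secreted list within the rat Abcb11 shifted by -0.88, with overlapping groups.

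Abcc6, a basolateral relative of Abcc2 known for releasing ATP from hepatocytes, read -1.86, -2.09, -1.98, -2.74 and -1.85 in DEN/TAA replicates 1 to 5, against 0.63, 0.74, 0.64, 0.67 and 0.86 in control replicates 1 to 5. It differed by -2.82 (SE 0.18, limma adjusted p = 7.02e-07), or 7.04-fold lower in DEN/TAA, with little spread in control. Abcd3, a peroxisomal fatty acid carrier, differed by -1.16 (adjusted p = 0.000305). Abcb4, the phosphatidylcholine flippase of the canaliculus and a map neighbour of Abcb1b, differed by -0.86 (adjusted p = 0.0142) with overlapping groups, and both lost the call under 1 scaling.

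Among the genes called higher, Abcc1, an export pump of glutathione conjugates that is scarce in normal hepatocytes, was detected in all 5 DEN/TAA rats and in no control rat. Scaled on the detected probes, it was at least 4.43-fold higher in DEN/TAA (limma adjusted p = 2.33e-05 for the measured difference of 3.98). That bound, 2.15 on the log2 scale, did not hold with normexp background correction, where the difference was 0.94 (adjusted p = 0.0600). Abcg1, a cholesterol exporter abundant in macrophages, differed by 2.16 (SE 0.18, adjusted p = 3.16e-06), and Abcc5, a cyclic nucleotide exporter, by 2.24 (SE 0.33, adjusted p = 0.000163). Both were called under all 6 scalings. Abcc9, a potassium channel subunit of vascular cells, differed by 1.46 (adjusted p = 0.00115), ranged from -0.28 to 2.12 over the scalings and was detected on 1 of 5 control arrays. Abcg2, an exporter of the canaliculus, had a probe below the detection filter and was not tested.

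Among 22 regulators of these transporters, 19 had a named probe and 16 were tested, of which 7 were called lower, 1 higher and 8 were not called, against 55.5% of all genes called in either direction, 16.3% lower. Their median was -0.55 but changed sign over the scalings, from -1.07 to 0.11, and 2 to 11 were called lower and 0 to 2 higher there. Hnf4a, a hepatocyte identity factor, differed by -0.99 (SE 0.18, limma adjusted p = 0.000750), Cebpa, another one, by -1.75 (SE 0.30, adjusted p = 0.000489), and Ghr, the growth hormone receptor, by -1.78 (SE 0.18, adjusted p = 1.37e-05). The bile acid receptor gene Nr1h4 differed by -1.17 (SE 0.20, adjusted p = 0.000487) and the PXR gene Nr1i2 by -1.02 (SE 0.23, adjusted p = 0.00289), the last with overlapping groups. Of these 5, Ghr and Cebpa were called under all 6 scalings, and the others under 5. A second Hnf4a probe differed by -0.70 and did not pass (adjusted p = 0.0947 over all probes).

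The gene for the other xenobiotic receptor, Nr1i3 (CAR), differed by -0.16 (95% interval -1.41 to 1.08, adjusted p = 0.824), which leaves a wide range of change possible. Its difference changed sign over the scalings, from -0.89 to 0.50. Nfe2l2, which encodes NRF2, differed by 0.48 (adjusted p = 0.284) and Mafg, a partner of NRF2 on DNA, by 0.97 (SE 0.22, adjusted p = 0.00329), called under 5 of 6 scalings. NRF2 is known to be set mainly by protein turnover, which these arrays do not read. Of 15 tested genes known as NRF2 targets in liver, 14 were called higher and 0 lower, against 39.2% and 16.3% of all genes tested. The list's median was 2.34, or 2.02 with undetected signals raised to the floor, where 13 were called higher. Srxn1 and Slc7a11 were above background on no control array. With normexp Srxn1 was 0.020 and Slc7a11 -0.044, and each was called under 5 of the 6 scalings. With the raised floor Srxn1 was 1.16 (adjusted p = 0.0219) and Slc7a11 lost its call (0.88, adjusted p = 0.124). Txnrd1 and Gclc, enzymes of thioredoxin and glutathione supply, differed by 3.39 and 4.02 (adjusted p = 2.71e-08 and 1.61e-07). Between 12 and 15 of the list were called higher over the scalings. The part of NRF2 in the transporter results was not tested.

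**Figure D5:**
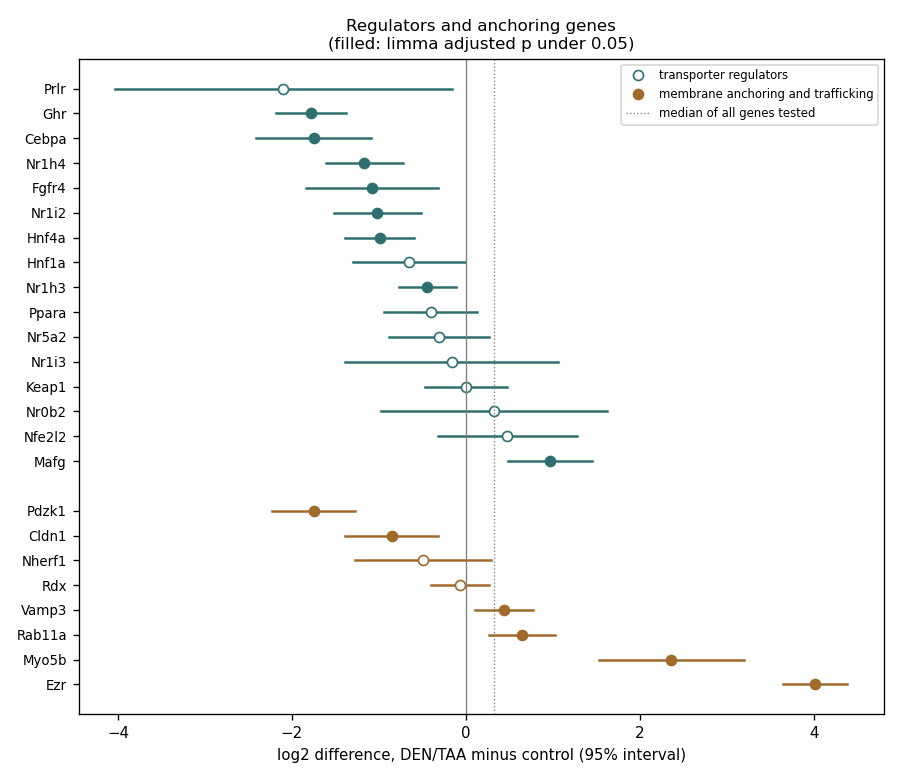
Log2 difference, DEN/TAA minus control, with its 95% interval (x axis) for the tested transporter regulators and for genes that anchor or traffic transporters to the membrane. Filled points passed the limma adjusted p of 0.05 and the dotted line is the median of all genes. Ghr and Cebpa lie left of 0, Nr1i3 and Nfe2l2 have intervals that span 0, and Ezr lies farthest right.

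Transporters reach the membrane through anchoring and trafficking proteins, of which 8 of 13 genes were tested, with 4 called higher, 2 lower and 2 not called, against 39.2% higher and 16.3% lower of all genes. Over the scalings 2 to 5 were called higher and 1 to 3 lower. Pdzk1, the scaffold that holds Slco1a1 at the membrane in mouse, read -3.91, -3.62, -3.80, -4.65 and -3.57 in DEN/TAA replicates 1 to 5, against -1.86, -2.19, -2.38, -2.01 and -2.35 in control replicates 1 to 5. It differed by -1.75 (SE 0.22, limma adjusted p = 4.61e-05) without overlap. Cldn1, a tight junction protein, differed by -0.85 (adjusted p = 0.0111) and lost the call under 1 of 6 scalings. Ezr, encoding ezrin, a membrane-to-actin linker of bile duct and other epithelial cells, read -0.62, -0.75, -0.55, -0.21 and -0.42 in DEN/TAA replicates 1 to 5, against -4.67, -4.47, -4.89, -4.36 and -4.24 in control replicates 1 to 5. It differed by 4.02 (SE 0.17, adjusted p = 2.71e-08), and was detected in 3 of 5 control rats. The trafficking genes Myo5b, Rab11a and Vamp3 differed by 2.36, 0.64 and 0.44 (adjusted p = 0.000307, 0.00797 and 0.0277), each losing the call under at least 1 scaling. Myo5b was detected in 1 of 5 control rats, and its difference was 0.54 with normexp and 1.57 with the raised floor.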

How the data were processed

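Liver RNA of 5 DEN/TAA and 5 control rats was read on 1-colour arrays. Per the file headers, the deposited scanner files hold spot intensity that Agilent Feature Extraction 11.5.1.1 wrote after background subtraction on the array. The submitters' processing notes give version 15.5. The deposited table of the series holds log2 values made by the authors, whose order matched each array's raw median signal (Spearman's rho of 1). It served as an alternative.

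Spots flagged as outliers and control spots were left out, log2 processed signals were averaged per probe, and each array's 75th percentile over the 6229 probes well above background on all 10 arrays was subtracted. No spot was saturated. A multi-spot probe counted as above background when at least 0.5 of its spots were. Probes above background on at least 5 of 10 arrays were kept (14277 probes), and a gene was represented by its brightest one. Probes were named by their RefSeq entry, giving 1 symbol to 17502 of 41012 probes and 0 of them several, for 13832 genes. No gene coordinates are given from the array's own older build, and the promoter windows carry those of GRCr8.

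The test was limma 3.58.1 under R 4.3.3, two-sided, with Benjamini-Hochberg adjustment over 6849 genes and a threshold of 0.05, after a test of the script on simulated data. Bounds written as at least N-fold set each dim array no lower than its dimmest probe well above background. They were worked out for the scaling on detected probes only. The number of arrays limits the precision, and the p-values measure the spread between these rats, taken as 1 rat per array from the labels.

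The transporters, lists and tests were chosen with earlier results of these data known. All 9 transporters are named, with up to 4 called genes per direction of the other transporter, regulator and anchoring lists, up to 2 of the NRF2 and cell marker lists, and a few set genes whatever their result, of which 1 is not reported here. Alternatives were normexp with an offset of 50, quantile normalisation, the percentile over all probes, scaling on the 5 brightest spike-in probes, the authors' table, other filters, the mean over probes, slide and replicate number as blocks, another prior, a raised floor, and leaving out rats.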

Additional observations from a re-analysis of the deposited data

Results flagged for a closer look

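Each group of 5 was searched for a rat whose gap to its nearest neighbour took an unusually large part of the group's range, by Dixon's 95% critical value of 0.71 for 5 samples. Chance alone flags a small share of groups by this measure, and 2 of the groups over the transporter probes were picked out. On the probe of Slco1b2, DEN/TAA replicate 4 read -2.87, lower than the other DEN/TAA rats, with a gap of 0.75 of the range. On the second probe of Slco1a4, control replicate 1 read -3.60, lower than the other control rats, with a gap of 0.77 of the range, and the brighter probe also had its lowest control value in that rat.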

How the results depend on the processing

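Of 158 values of the 7 tested transporters under the alternatives, 155 kept their direction and call. Abcc4 reversed with normexp background correction (-0.17) and with undetected signals raised to the floor (-0.14), and Abcb1b lost its call with normexp (0.30). With normexp 2 export pumps were called, and with the filter on all 10 arrays 1, since the other 3 were not detected in all control rats. The shift of uptake minus export was -3.01 with normexp, -2.70 in the authors' table, -3.78 with the filter on all 10 arrays and -3.80 with the raised floor. Without a filter 8391 genes were called in all, 14 of them other uptake carriers and 16 other ABC transporters, and with the filter on all 10 arrays 2098 were, 3 of them other ABC transporters and 5 regulators. Spike-in scaling left 4 regulators called. The split of all calls into higher and lower was 2685 and 1116 here, 880 and 1947 with normexp, 1936 and 1354 with quantile normalisation, 4446 and 396 with spike-ins, 1613 and 1597 when all probes set the percentile, 2036 and 1315 in the authors' table, 2590 and 5801 without a filter and 1154 and 944 with the filter on all 10 arrays. Where no cause is named it was not tested.

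With 1 rat left out at a time, 3328 to 3828 genes were called, always 3 uptake carriers and 4 export pumps, with 6 to 9 other carriers, 9 to 10 other ABC transporters and 7 to 9 regulators, and the shift of uptake minus export was -5.13 to -4.69. Replicate numbers are shared between the groups in the labels, and same-numbered rats shared a slide except for replicate 4. Deviations of same-numbered rats correlated at only -0.22 to 0.20. With 1 pair per number this cannot settle whether the numbers pair the rats, which were treated as unpaired. With the replicate block 3802 genes were called and the calls of the 7 transporters did not change. Signals near background on control arrays limit Abcc3, Abcc4, Abcb1a and Abcb1b most.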
